A study of Mus musculus with 8 samples.

Results

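Molecular chaperones and protein folding enzymes were examined in mouse keratinocytes that differed in the gene Nfkbiz. Genes were taken by their platform symbol: heat shock protein families Hspa, Hspb, Hsp90, Hspd, Hspe and Hsph, DnaJ families a to c, protein disulfide isomerases (Pdia), chaperonin subunits (Cct), FK506-binding proteins (Fkbp), cyclophilins (Ppi) and Bag genes, with Chac1 and Sdf2l1 added by name. The rule found 44 genes among 9294 genes with a single platform symbol, each with 1 probe set. Expression had been measured on 8 one-colour arrays of biotin-labelled total RNA from C57BL/6 keratinocytes. The 4 wild-type RAS arrays and the 4 knockout RAS arrays, the latter from Nfkbiz KO cells, all came from cultures transduced with the v-rasHa oncogene for 3 days and grown in regular media without starvation. Since every culture carried v-rasHa, the comparison is between genotypes within transduced cells, and cultures lacking the oncogene are not part of the series. Nfkbiz, Hras and Krt14 were not analysed here, and loss of Nfkbiz rests on the labels. The labels call the 4 samples of each genotype biological replicates, and do not say how the Nfkbiz allele was made or whether cultures were pooled.

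Chaperones bind unfolded or partly folded proteins and keep them from aggregating. In the cytosol, Hsp70 proteins work through cycles of ATP binding and hydrolysis that DnaJ proteins start and Bag proteins help to reset, while chaperonins fold proteins inside a closed chamber. In the endoplasmic reticulum (ER), disulfide isomerases and prolyl isomerases of the FK506-binding and cyclophilin families assist folding, and the unfolded protein response raises many of these genes when folding falls behind. Keratinocytes make large amounts of keratins, cell adhesion proteins and, when activated, secreted proteins.

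Few chaperone and folding genes passed the test between the 2 genotypes. The median size of the log2 fold change, without its sign, was 0.085 over the members and 0.074 over all genes tested. By limma, with Benjamini-Hochberg adjustment over all 9294 genes and a threshold of 0.05, 3 members passed: Hspa2 rose, and Chac1 and Sdf2l1 fell. That is 6.82% of the members, where 8.90% of all genes tested passed (4.43% lower and 4.47% higher in the knockout). Chac1 and Sdf2l1 were added by name with earlier results of these data known, so member counts that hold them are no fair share. By symbol family alone, Hspa2 was the single call. With arrays centred on their median, 796 genes passed over the whole array in place of 827, with 482 higher and 314 lower in place of 415 and 412. The median log2 fold change (knockout minus wild-type) was -0.023 over the members and -0.012 over all genes tested, and 18 members had a positive and 26 a negative value. An unadjusted p under 0.05 was found for 8 of the 44 members (18.2%), against 20.8% of all genes tested. The 4 wild-type and 4 knockout values did not overlap for 7 members (15.9%), Chac1 and Sdf2l1 included, and for 15.9% of all genes. The knockout lay below for Chac1, Sdf2l1, Pdia5 and Cct5 (9.09% of members, against 7.97% of all genes) and above for Hspa2, Hspb6 and Dnajc30 (6.82%, against 7.91%). Without the genes added by name, Pdia5 and Cct5 alone lay below.

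The intervals limit how large any change could have been. The 95% interval of the fold change lay inside 1.5-fold in either direction for all 44 members and inside 1.2-fold for 27 of them. Over all genes tested, 8941 of 9294 had an interval inside 1.5-fold and 5637 inside 1.2-fold. No detection calls were used, and 12 members had a mean below 4.49, the lowest of the array medians, and whether these were expressed was not known. None of these 12 passed the limma test, and 1 of them, Cct6b, had an unadjusted p under 0.05. The median log2 fold change was -0.018 for the other 32 members. Of these 32, 9.4% passed, Chac1 and Sdf2l1 included, against 14.5% of all genes with a mean at or above 4.49. The 8.90% of all genes used for comparison throughout counts 4186 genes below that level.

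**Figure D1:**
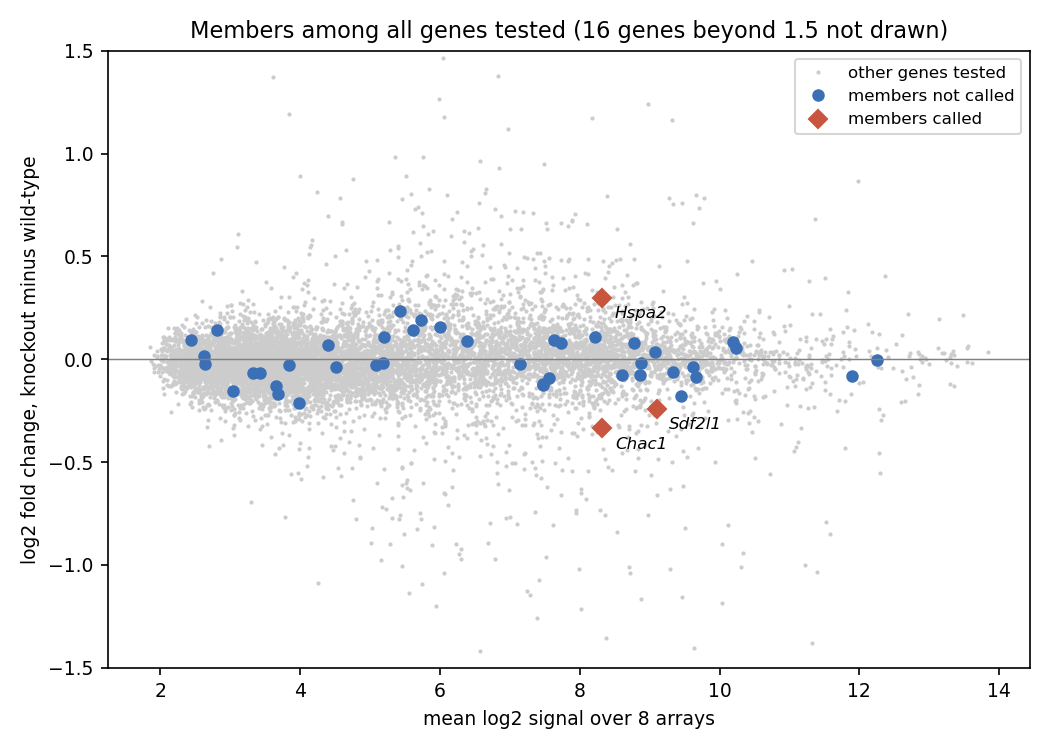
Each point is a gene, placed by its mean log2 signal over the 8 arrays (horizontal) and its log2 fold change, knockout minus wild-type (vertical); grey points are the other genes tested, blue points the 41 members that did not pass and red diamonds the 3 that did. The members stay between -0.34 and 0.30, and 16 genes beyond 1.5 in size are not drawn.

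The arrays were alike in their medians. Array medians were 4.49 to 4.57 on the log2 scale, and the median deviation of the 44 members from their wild-type mean was -0.013 to 0.020 in wild-type and -0.050 to 0.016 in knockout arrays. Krt5, the basal keratin of keratinocytes, had a log2 signal of 13.42 ± 0.03 in wild-type and 13.29 ± 0.06 in knockout arrays (mean and SD of 4 arrays; adjusted p = 0.167 in limma). Krt5 did not pass, but all its knockout values lay below its wild-type values. Of 10 keratinocyte markers measured, 2 fell and none rose. Those that fell were Krtdap and Col17a1, with log2 fold changes of -0.45 and -0.31. Of the 10, 6 had a negative and 4 a positive log2 fold change, the largest positive value being 0.12 for Cdh1. The summed log2 signal of the 10 was 15.1 in every wild-type array and 14.9 to 15.0 in knockout arrays. Of 6 fibroblast markers, 5 fell and 1 rose, and the summed log2 signal was 9.57 to 9.69 in wild-type and 8.94 to 9.14 in knockout arrays. The marker that rose, Postn, had a log2 fold change of 1.47, against -1.02 for Twist2, the largest fall. Of 3 melanocyte markers, 1 fell and none rose, with summed log2 signals of 11.5 in every wild-type array and 11.1 to 11.4 in knockout arrays. Of 8 leukocyte markers 1 fell, 5 lay below the lowest array median, and the summed log2 signal was 7.87 to 8.05 in wild-type and 7.74 to 7.89 in knockout arrays. Of 5 endothelial markers none passed the limma test, 1 had an unadjusted p under 0.05 and 3 lay below the lowest array median, with summed log2 signals of 6.74 to 6.83 and 6.55 to 6.81. The summed signals of keratinocyte, fibroblast and melanocyte markers did not overlap between the genotypes, and those of leukocyte and endothelial markers overlapped. In whole cultures, fewer cells of a type and less RNA per cell cannot be told apart. The part of these marker differences in the results below was not tested.

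The promoters of the 2 genes that fell are shown because both genes are known to respond to ER stress, Chac1 through the factor ATF4. RefSeq promoter windows (GRCm38.p6, 250 bases before to 50 after a start site) were matched by gene identifier for 38 of the 44 members, giving 46 windows. The sequences below are the 250 bases before the start site, 5′ to 3′ on the strand of the gene. Capitals mark, on either strand, the element TGATGNAA bound by ATF4 and its partners (TTGCATCA in Chac1) and the CCAAT box (CCAAT or ATTGG).
Chac1, chr2:119350992-119351241, plus strand: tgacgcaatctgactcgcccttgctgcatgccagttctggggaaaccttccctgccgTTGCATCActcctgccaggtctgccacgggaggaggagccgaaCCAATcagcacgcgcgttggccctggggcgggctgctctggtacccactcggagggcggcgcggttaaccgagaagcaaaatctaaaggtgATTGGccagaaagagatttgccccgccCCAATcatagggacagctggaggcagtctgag
Sdf2l1, chr16:17132384-17132633, minus strand: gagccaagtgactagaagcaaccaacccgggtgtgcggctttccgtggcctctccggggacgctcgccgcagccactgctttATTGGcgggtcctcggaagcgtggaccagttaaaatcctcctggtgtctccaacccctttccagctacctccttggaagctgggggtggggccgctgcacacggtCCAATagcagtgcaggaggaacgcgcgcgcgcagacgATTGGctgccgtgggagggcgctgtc
Chac1 was the single member whose window held TGATGNAA on either strand, 193 bases before its start site, where 3.97% of all 32851 windows held it. Among the related genes named below, Atf3 and Tbce held it too, and both of those rose. CCAAT boxes were in 23 of the 46 member windows (50%) and in 37.4% of all windows.

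Other elements of the stress responses were present in few members, and they are shown as short sites with the match in capitals. The ER stress response element (CCAAT, 9 bases of any kind, then CCACG) was in none of the 46 member windows and in 0.119% of all windows. Creld2, a related gene named below that fell, held this element. The related second element (ATTGG, any base, then CCACG), which holds a CCAAT box on the other strand, was in Dnajb11 and in 0.0365% of all windows. The unfolded protein response element TGACGTGG was in Dnajc25 and Fkbp1b and in 0.676% of all windows. The heat shock element was searched as 3 alternating units, GAA and TTC, with 2 bases between units, starting with either unit. Each form is the reverse complement of the other, so on both strands they are the same search. The element was found in Hspd1, as overlapping matches, and in 0.603% of all windows. Hspa2, the gene that rose, had a CCAAT box and none of the other elements spelled out here. The RefSeq gene of Hspa2 starts before this window, so the window could be transcribed and may not describe its promoter.
Dnajb11, chr16:22857846-22857868, plus strand: gcggcgATTGGCCCACGcctggc
Dnajc25, chr4:59003138-59003157, plus strand: gcctgcTGACGTGGaccggg
Fkbp1b, chr12:4841666-4841685, minus strand: gagcagCCACGTCAgggtcg
Hspd1, chr1:55088053-55088082, minus strand: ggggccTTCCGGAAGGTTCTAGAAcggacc
Hspa2, chr12:76404335-76404351, plus strand: ggaccgATTGGctctga
The 10-base kappaB consensus was in 4 of the 46 member windows (8.70%), those of Dnajc4, Hspa1a, Hspb6 and Hspd1, and in 8.46% of all windows. Creld2 and Atf5, related genes named below that fell, held it too. A match is a description of the letters and not a bound site.

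Chac1 and Sdf2l1 are the members added by name, and earlier results of these data were known when they were chosen. Chac1 encodes an enzyme that breaks down glutathione and is not itself a chaperone. Its log2 signals were 8.41, 8.47, 8.53 and 8.57 in the wild-type arrays and 8.08, 8.22, 8.21 and 8.12 in the knockout arrays. All 4 knockout values lay below the lowest wild-type value. The log2 fold change was -0.34 ± 0.06 (SE; limma adjusted p = 0.00337), and the signal fell by 20.8%. The adjusted p of Chac1 was 1.72e-05 to 0.0134 over 15 alternatives, and Chac1 kept its call in each of them.

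Sdf2l1 encodes a soluble ER protein that works with the ER Hsp70 and the DnaJ protein of Dnajb11. Sdf2l1 had log2 signals of 9.24, 9.23, 9.23 and 9.19 in the wild-type arrays and 8.86, 9.02, 8.99 and 9.04 in the knockout arrays. The knockout values were again all below the wild-type values, and replicate 1 was the lowest of them. The log2 fold change was -0.24 ± 0.05 (SE; limma adjusted p = 0.0192), and the signal fell by 15.3%. The call was lost without wild-type RAS replicate 1 (adjusted p = 0.0506), without wild-type RAS replicate 2 (0.0531) and without knockout RAS replicate 1 (0.0535), with log2 fold changes of -0.23, -0.24 and -0.20. Dnajb11, which encodes the ER co-chaperone ERdj3, had a log2 fold change of -0.09 ± 0.05 (adjusted p = 0.384), and its groups overlapped. 

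Among the Hsp70 genes, Hspa2 rose and the other 3 did not pass. Hspa2 is an Hsp70 gene best known for its high expression in testis and is also active in other tissues. It had log2 signals of 8.21, 8.13, 8.15 and 8.19 in the wild-type arrays and 8.44, 8.50, 8.57 and 8.38 in the knockout arrays. Every knockout value was above every wild-type value. The log2 fold change was 0.30 ± 0.06 (SE; limma adjusted p = 0.00557), a signal 23.1% higher, and the adjusted p was 5.56e-05 to 0.0255 over 15 alternatives. Hspa1a, the stress-inducible cytosolic Hsp70 gene, had log2 signals of 9.07, 9.02, 9.01 and 9.13 in wild-type and 9.05, 9.14, 9.08 and 9.09 in knockout arrays. Those groups overlapped, with a log2 fold change of 0.035 ± 0.05 (adjusted p = 0.772) and a 95% interval of -0.076 to 0.147. Hspa1l and Hspa12b, with means of 2.81 and 3.66 over the 8 arrays, lay below the array medians.

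**Figure D2:**
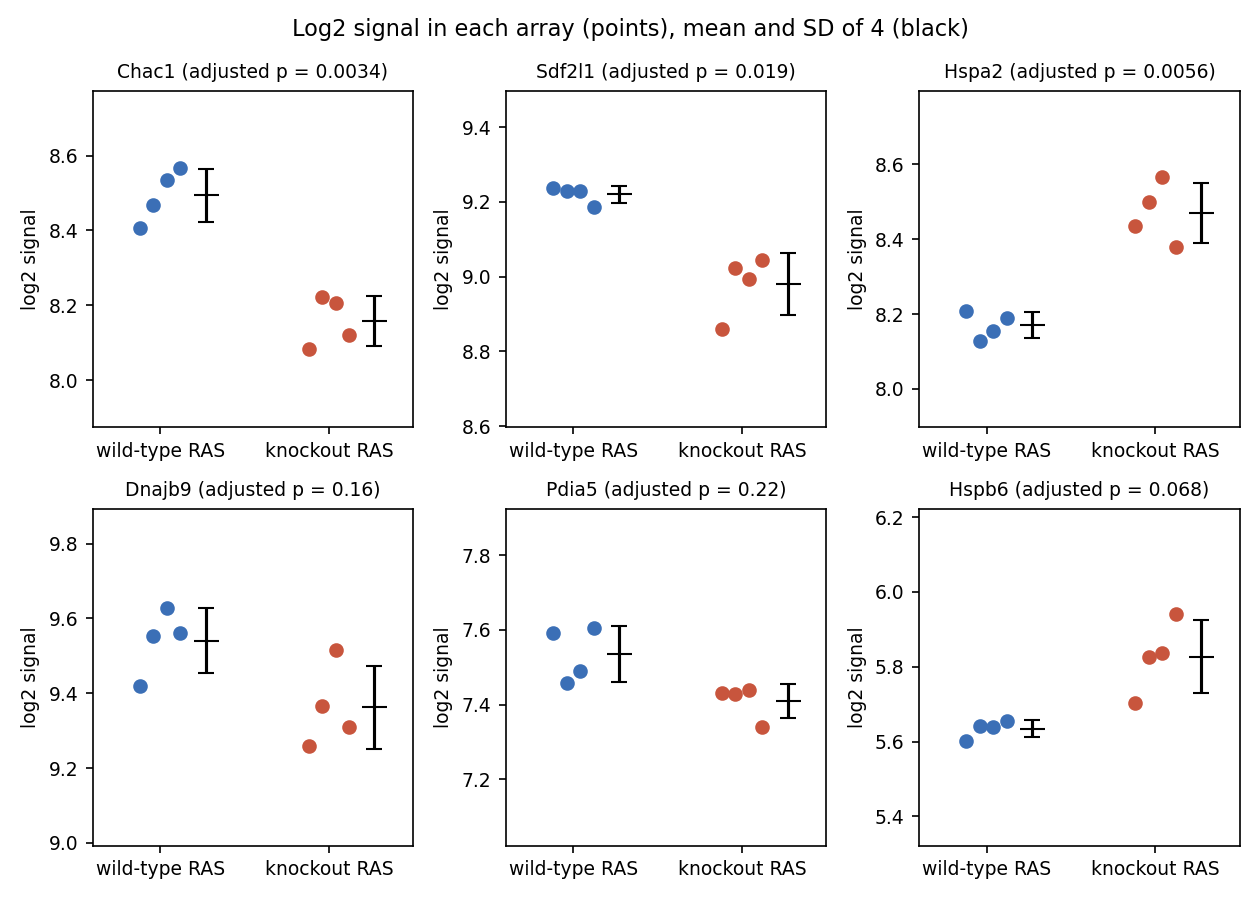
Log2 signal of 6 members in each array (points, in replicate order) with the mean and SD of 4 arrays in black; every vertical axis spans 0.9 log2 units. Chac1, Sdf2l1 and Hspa2 passed the limma test with groups that do not overlap, while Dnajb9 overlapped and Pdia5 and Hspb6 did not overlap but did not pass.

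None of the 4 small heat shock genes passed the limma test, and 1 had an unadjusted p under 0.05. That gene was Hspb6, whose protein is a small chaperone also known as Hsp20. Its log2 signals were 5.60, 5.64, 5.64 and 5.65 in the wild-type arrays and 5.70, 5.83, 5.84 and 5.94 in the knockout arrays. The knockout values were all higher, but their spread was larger (SD 0.10 against 0.02), and the log2 fold change of 0.19 ± 0.06 had an adjusted p of 0.0678. Hspb6 passed with arrays centred on their median (adjusted p = 0.0423), with the lowest 25% of genes left out (0.0438) and without knockout RAS replicate 1 (0.0348, log2 fold change 0.23). Hspb2, whose protein binds a muscle protein kinase, had 0.14 ± 0.08 (adjusted p = 0.337) with overlapping groups, and Hspb3 and Hspb9 lay below the array medians.

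None of the 4 chaperonin genes passed the limma test, and 1, Cct6b, had an unadjusted p under 0.05. Hspd1 encodes Hsp60, the chaperonin of mitochondria. Its log2 signals were 12.26, 12.24, 12.25 and 12.28 in wild-type and 12.27, 12.25, 12.19 and 12.29 in knockout arrays. The log2 fold change of Hspd1 was -0.002 ± 0.05 (adjusted p = 0.991), with a 95% interval of -0.107 to 0.103, and its sign changed with the setting. Cct5, a subunit of the cytosolic chaperonin that folds actin and tubulin, is named because its groups did not overlap, a choice made after its values were seen. Its values were 11.92, 11.90, 11.93 and 11.99 in wild-type and 11.88, 11.85, 11.87 and 11.83 in knockout arrays, a log2 fold change of -0.08 ± 0.05 (adjusted p = 0.391). Cct6b, the testis form of another subunit, had a log2 fold change of -0.21 ± 0.07 (adjusted p = 0.113) at means of 4.10 in wild-type and 3.89 in knockout arrays, below the array medians. Cct6b passed without knockout RAS replicate 3 (log2 fold change -0.27, adjusted p = 0.0326). Cct8l1, a chaperonin-like gene, had -0.17 ± 0.10 (adjusted p = 0.414) and also lay below the array medians.

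The 17 DnaJ genes, which encode the partners that start the Hsp70 cycle, gave no call in limma, with 1 unadjusted p under 0.05. Their log2 fold changes ran from -0.18 to 0.16, 9 of them positive and 8 negative. Dnajb9 encodes ERdj4, an ER co-chaperone raised by the unfolded protein response, and had the largest value in size. Its log2 signals were 9.42, 9.55, 9.63 and 9.56 in the wild-type arrays and 9.26, 9.37, 9.51 and 9.31 in the knockout arrays. The groups overlapped, since knockout replicate 3 lay above wild-type replicate 1. The log2 fold change was -0.18 ± 0.07 (adjusted p = 0.157), and it passed with a trended and robust variance prior (adjusted p = 0.0260).

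Dnajb11 had log2 signals of 9.70, 9.76, 9.74 and 9.65 in wild-type and 9.60, 9.58, 9.69 and 9.63 in knockout arrays. The mean difference of Dnajb11 was smaller than that of Dnajb9, and neither passed. Dnajc30, a mitochondrial DnaJ gene named after its values were seen, was the single DnaJ gene with groups that did not overlap, with 8.07 to 8.23 in wild-type and 8.24 to 8.32 in knockout arrays and a log2 fold change of 0.11 ± 0.05 (adjusted p = 0.284). Other DnaJ genes had small differences: Dnajc7, a co-chaperone of Hsp70 and Hsp90, had -0.04 ± 0.05, Dnajc15 of the mitochondrial inner membrane had -0.08 ± 0.05, and Dnajc9, a histone chaperone, had 0.08 ± 0.06. Their adjusted p-values were 0.739, 0.476 and 0.520. Dnajc12, a neuroendocrine co-chaperone of aromatic amino acid hydroxylases, had 0.16 ± 0.08 (adjusted p = 0.326). The remaining DnaJ genes were Dnajb2, Dnajb3, Dnajb7, Dnajb8, Dnajb13, Dnajc1, Dnajc4, Dnajc5b, Dnajc5g and Dnajc25. Of all 17 DnaJ genes, 5 had means below the array medians.

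**Figure D3:**
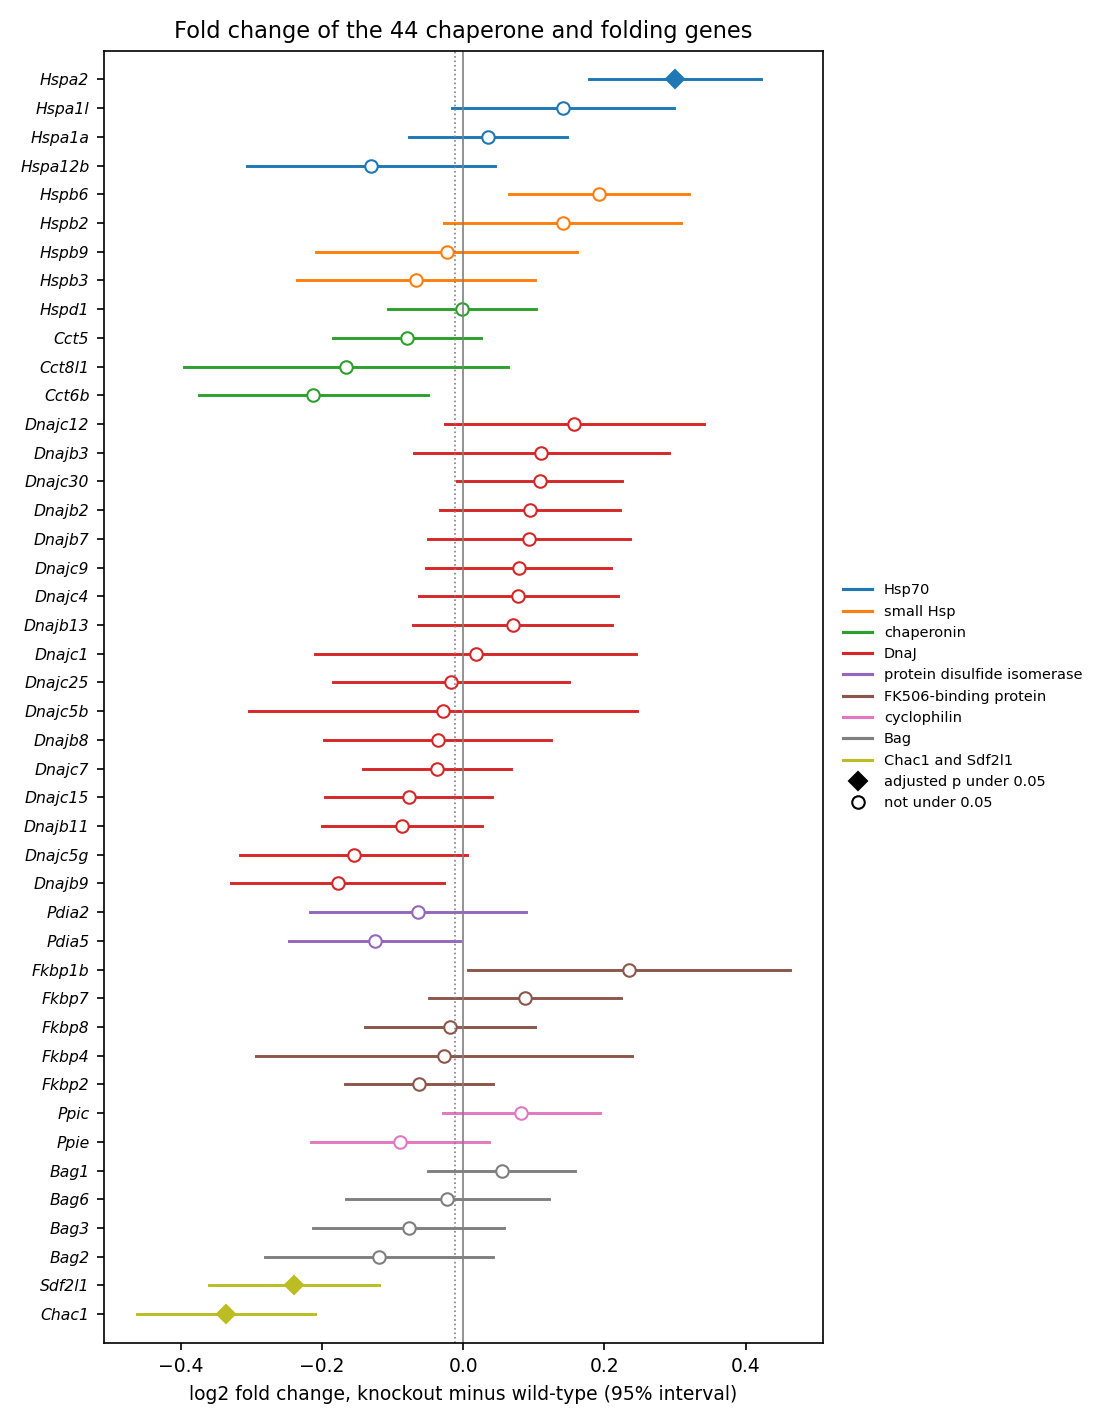
Log2 fold change (knockout minus wild-type) of each of the 44 members with its 95% interval, grouped and coloured by role; filled diamonds passed an adjusted p of 0.05 and the dotted line is the median of all genes tested. The intervals of Hspa2, Chac1 and Sdf2l1 exclude 0, as do those of Hspb6, Cct6b, Dnajb9, Pdia5 and Fkbp1b, which did not pass after adjustment.

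Neither of the 2 protein disulfide isomerase genes passed the limma test, and 1 had an unadjusted p under 0.05. Pdia5, which encodes an ER enzyme that forms and rearranges disulfide bonds, had log2 signals of 7.59, 7.46, 7.49 and 7.60 in wild-type and 7.43, 7.43, 7.44 and 7.34 in knockout arrays. The knockout values were all lower, by a narrow margin, with a log2 fold change of -0.13 ± 0.05 (adjusted p = 0.221). Pdia2, a form made mainly in pancreas, lay below the array medians at 3.43.

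The prolyl isomerases did not pass either. Of 5 FK506-binding protein genes, 1 had an unadjusted p under 0.05 in limma: Fkbp1b, whose protein binds calcium release channels, had 5.16, 5.26, 5.40 and 5.43 in wild-type and 5.70, 5.31, 5.76 and 5.41 in knockout arrays. The knockout arrays spread widely (SD 0.22) and overlapped the wild-type arrays, so that a log2 fold change of 0.23 ± 0.10 had an adjusted p of 0.224. Fkbp2, an isomerase of the ER, had 9.37 ± 0.03 in wild-type and 9.31 ± 0.03 in knockout arrays (mean and SD of 4 arrays; adjusted p = 0.522 in limma). Fkbp4, a co-chaperone of Hsp90 in steroid receptor complexes, Fkbp7 of the ER and the membrane-bound Fkbp8 had log2 fold changes of -0.03, 0.09 and -0.02.

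Neither of the 2 cyclophilin genes passed. Ppic, a cyclophilin of the secretory pathway, had 10.15 ± 0.04 in wild-type and 10.23 ± 0.05 in knockout arrays (mean and SD of 4 arrays; adjusted p = 0.403 in limma). Ppie, a cyclophilin of the spliceosome, had 7.61 ± 0.03 and 7.52 ± 0.09 (adjusted p = 0.420), and neither had an unadjusted p under 0.05. The 4 Bag genes gave no call and no unadjusted p under 0.05 in limma. Bag1 had a log2 fold change of 0.05 ± 0.05 (adjusted p = 0.584) and Bag2, an inhibitor of the ubiquitin ligase CHIP, had -0.12 ± 0.07 (adjusted p = 0.405). Bag3, a stress-inducible gene that links chaperones to autophagy, had -0.08 ± 0.06, and Bag6, which guards membrane proteins before insertion, had -0.02 ± 0.07.

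**Figure D4:**
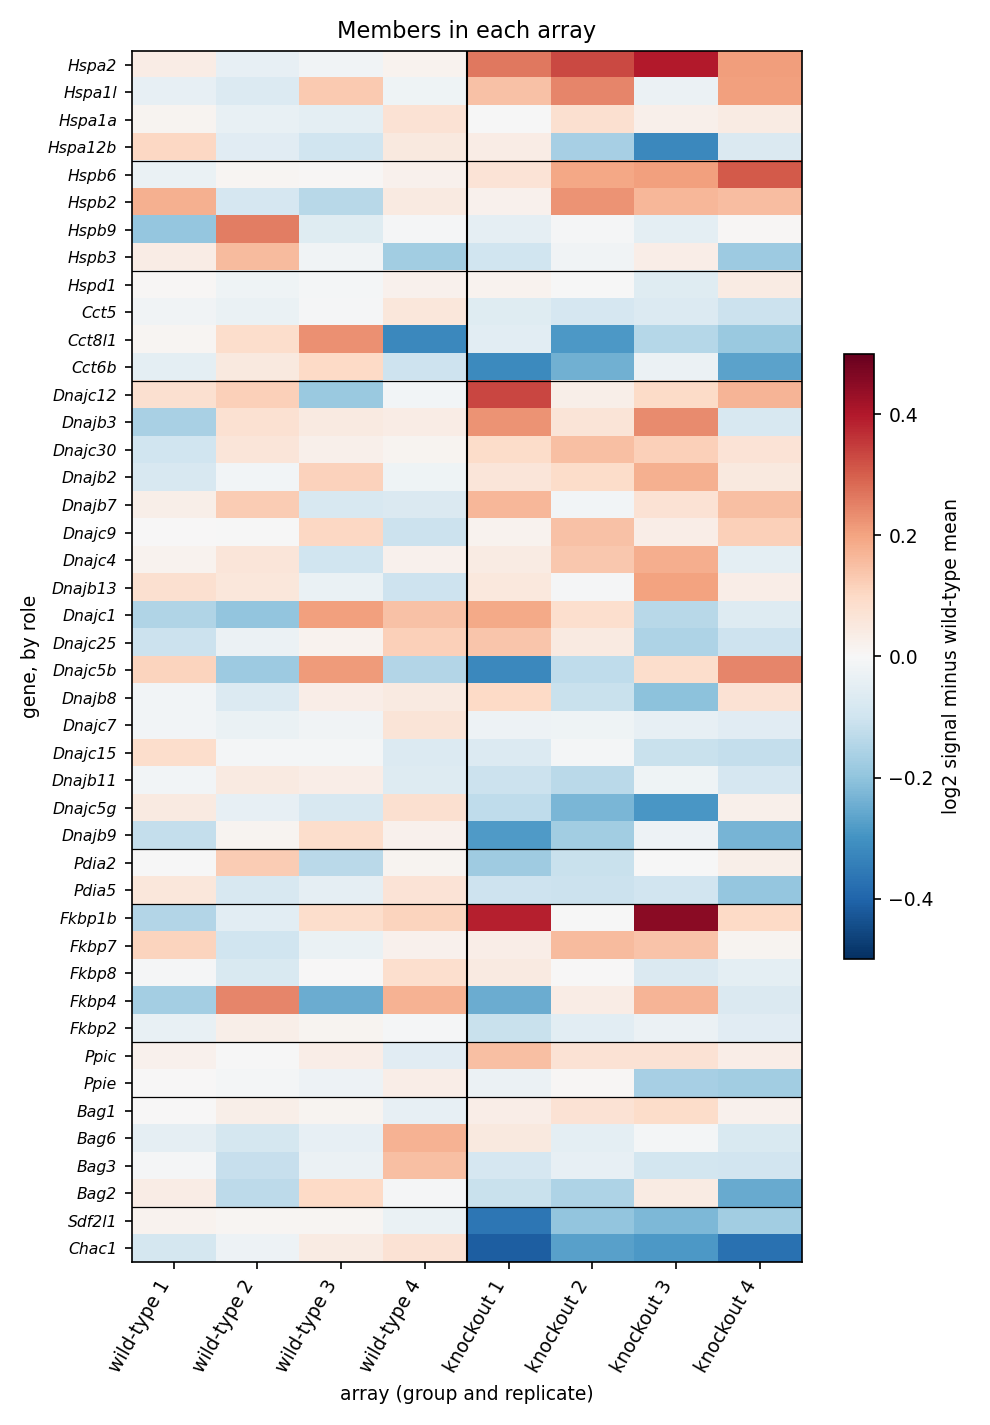
Log2 signal of each member in each array minus its wild-type mean, with wild-type arrays to the left and knockout arrays to the right of the vertical line and lines between roles. Hspa2 is higher in all 4 knockout arrays and Chac1 and Sdf2l1 are lower in all 4; most other rows stay pale on both sides, and the colour scale ends at 0.5 in size.

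Sorted by compartment, the members had few calls on either side. Of 10 members whose proteins enter the secretory pathway (assigned from general knowledge after the values were seen: Sdf2l1, Dnajb9, Dnajb11, Dnajc1, Dnajc25, Pdia2, Pdia5, Fkbp2, Fkbp7 and Ppic), 7 had a negative log2 fold change, as did 54.5% of all genes tested, and 1 passed (10%, against 8.90% of all genes). That call was Sdf2l1, a gene added by name, and it was lost without the single arrays named above. Their median log2 fold change was -0.063, against -0.021 for the other 34 members and -0.012 for all genes tested. With arrays centred on their median, 6 of the 10 were negative and the median was -0.037. The principal ER chaperone genes Hspa5, Hsp90b1, Pdia3, Pdia4 and Pdia6 were not analysed here, nor were Dnajc3, Hspa1b, Hspb1, Hspa8, Hsp90aa1, Hsp90ab1 and Hspe1.

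Related genes of the unfolded protein response moved in both directions. Of 15 regulators and targets measured, out of 41 listed symbols, 3 fell, 1 rose and 11 did not pass (26.7% called, against 8.90% of all genes), with a median log2 fold change of -0.055. Of these 15 genes, 2 had a mean below 4.49, and 14.5% of all genes at or above that level were called. This list and the related lists below were chosen with earlier results of these data known, so their called shares are no fair comparison. Atf3, a stress-induced transcription factor, rose from 7.23, 7.13, 7.15 and 7.21 in the wild-type arrays to 7.76, 7.91, 8.00 and 7.71 in the knockout arrays. This was a log2 fold change of 0.66 ± 0.07 (SE; limma adjusted p = 0.000104), with no overlap. Atf5, a relative of ATF4, fell from 9.62 ± 0.09 to 9.28 ± 0.06 (mean and SD of 4 arrays; adjusted p = 0.00425 in limma). The mitochondrial folate enzyme gene Aldh1l2 fell from 7.01 ± 0.08 to 6.65 ± 0.05 (adjusted p = 0.00188). Creld2, an ER-stress-induced secreted protein gene, fell from 8.79 ± 0.07 to 8.55 ± 0.05 (adjusted p = 0.0181), and lost its call without knockout RAS replicate 1 (adjusted p = 0.0588). Ddit3, the gene of the factor CHOP, is named after its values were seen: it had 7.99, 8.07, 8.20 and 8.06 in wild-type and 7.88, 8.12, 8.06 and 8.05 in knockout arrays. Its groups overlapped, with a log2 fold change of -0.06 ± 0.07 (adjusted p = 0.722).

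Genes of ER folding and quality control gave 3 falls and no rise among 33 measured of 100 listed symbols (9.09% called, against 8.90% of all genes), with a median log2 fold change of -0.033 (-0.006 with arrays centred on their median). The log2 fold change was negative for 25 of the 33 (75.8%, against 54.5% of all genes), and for 20 with arrays centred on their median. All knockout values lay below the wild-type values for 7 of the 33 and above for 0, against 7.97% and 7.91% of all genes. Of these 33 genes, 2 had a mean below 4.49, the lowest array median. Among all genes at or above that level, 14.5% were called. Both larger falls were in genes linked to collagen and matrix production: the collagen prolyl hydroxylase gene P4ha2 fell from 8.38 ± 0.08 to 7.84 ± 0.04 (mean and SD of 4 arrays; adjusted p = 9.08e-05 in limma), and the calcium-binding gene Rcn3 fell from 6.46 ± 0.11 to 5.92 ± 0.08 (adjusted p = 0.00038). Of 6 fibroblast markers in the same arrays, 5 were lower. The other, Postn, was higher, with the largest change of the 6 (log2 fold change 1.47, limma adjusted p = 2.12e-06). The part of fibroblast markers in these falls was not tested. P4hb, which encodes protein disulfide isomerase itself, fell from 11.67 ± 0.03 to 11.50 ± 0.02 (adjusted p = 0.0443). The groups of P4hb did not overlap, but leaving out each array in turn ended the call (adjusted p = 0.0550 to 0.115), as did repeated quantile normalization (0.0890) and median centring (0.120).

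Cytosolic co-chaperones and heat shock regulators gave 1 rise among 20 measured of 53 listed symbols (5% called, against 8.90% of all genes), with a median log2 fold change of 0.024. Tbce, a tubulin folding cofactor, rose from 7.64 ± 0.07 to 7.85 ± 0.05 (mean and SD of 4 arrays; adjusted p = 0.0424 in limma). Leaving out any of the arrays in turn ended the call (adjusted p = 0.0514 to 0.117), with the exception of wild-type RAS replicate 4 (0.0280). Of 7 mitochondrial chaperones and proteases measured of 19 listed, none passed in limma and 1 had an unadjusted p under 0.05, with a median log2 fold change of 0.050.

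**Figure D5:**
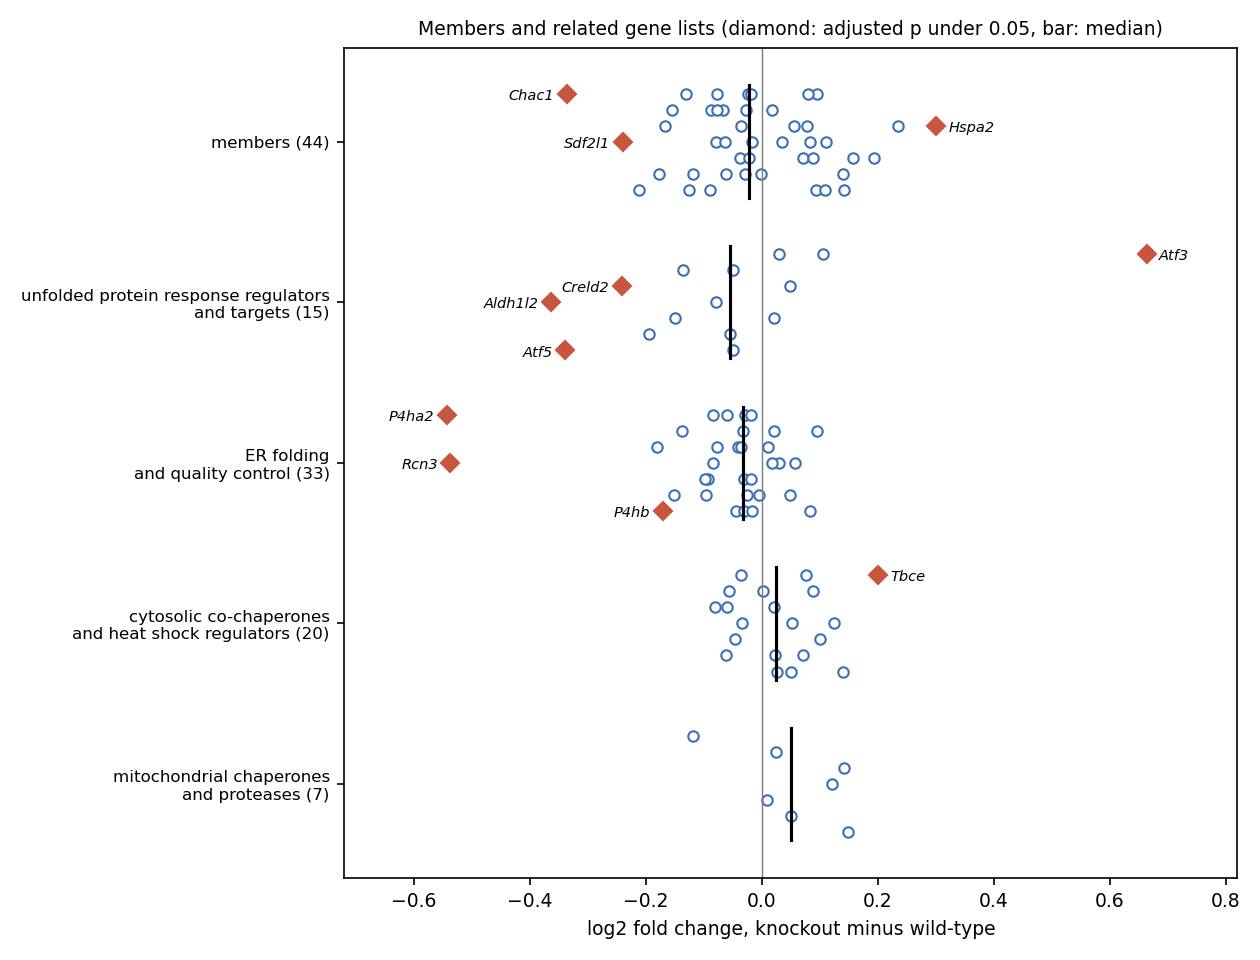
Log2 fold change (knockout minus wild-type) of the 44 members and of the measured genes of 4 related lists; red diamonds with names passed an adjusted p of 0.05 and black bars are medians. The 4 related lists hold 4, 3, 1 and 0 calls from top to bottom, and their medians lie between -0.055 and 0.050.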

How the data were processed

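The authors deposited 11373 probe set values for each of 8 arrays. No label gives their scale, and log2 was read from the range, 1.57 to 13.9. How the authors summarised and normalized them is not stated in these sources. The platform annotation gave 9374 probe sets a single symbol, 479 several and 1520 none. Where a gene had several probe sets, the one with the highest mean was kept. limma 3.58.1 (R 4.3.3; lmFit, eBayes, no covariate) was fitted across all 9294 genes, and differences are knockout minus wild-type. With 4 arrays a genotype, their number limits the precision. The code was tested on simulated data with 200 changed genes among 9294. It recovered 38.1% of 1.2-fold and 93.2% of 1.5-fold changes, and 5.5% of its calls were false. In that setting most changes of 1.2-fold were missed.

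Members and gene lists were chosen with earlier results of these data known. The text names called members, the highest and the most changed member of each role, 15 fixed symbols (3 measured) and up to 5 called genes of each related list; other genes are given as counts, in brief or as chosen after their values were seen. No 2 arrays were copies: differences between arrays of 1 genotype had an SD of 0.157 to 0.175. Alternatives were repeated quantile normalization, median centring, 2 filters on low signal, the mean of a gene's probe sets, a trended robust variance prior, a replicate block and leaving out each array. Promoter windows were scanned on both strands.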

Additional observations from a re-analysis of the deposited data

Results flagged for a closer look

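In 3 of 88 groups of 4 arrays (44 members in 2 genotypes), 1 array stood apart from the other 3 by more than Dixon's 95% critical value, which chance alone does in about 1 of 20 groups. Dnajb3 had a log2 signal of 4.99 in wild-type RAS replicate 1, against 5.19 to 5.23 in the other wild-type arrays. Pdia5 was at 7.34 in knockout RAS replicate 4, against 7.43 to 7.44 in the others. Sdf2l1 was at 9.19 in wild-type RAS replicate 4, against 9.23 to 9.24 in the others.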

How the results depend on the processing

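Over 15 alternatives, Chac1 and Hspa2 kept their direction and their call. Of the named genes' values under the alternatives, 324 kept direction and side of the threshold, 24 lost the call, 6 gained it and 5 changed sign. All 5 were of Hspd1, whose log2 fold change of -0.002 was 0.029 with repeated quantile normalization, 0.025 with median centring, and -0.016 to 0.018 without single arrays. The count of members that rose was 2 in place of 1 with arrays centred on their median, with the lowest 25% of genes left out, and with genes under a mean log2 signal of 5 left out (chosen after seeing the data), Hspb6 being the added gene, and it was 1 to 2 without single arrays. The count that fell was 1 to 3 without single arrays, 3 being without knockout RAS replicate 3. The median of the members was -0.023, 0.0036 with arrays centred on their median, and -0.039 to 0.0073 without single arrays (0.0073 without wild-type RAS replicate 4). The replicate numbers did not pair the arrays: deviations of same-numbered arrays correlated at -0.049 to 0.085. With the replicate block, 1 member fell in place of 2, since Sdf2l1 had an adjusted p of 0.0571, and 659 genes passed in place of 827. The count of all genes called was 598 to 1134. Detection was not known, so members below the array medians may be background.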

Other observations

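Probe sets that name a folding gene beside another gene were outside the rule. The probe set of Ppia, the abundant cytosolic cyclophilin, and Gm9234 had a log2 signal of 13.35 ± 0.02 in wild-type and 13.38 ± 0.02 in knockout arrays (SD, n = 4 per group), with overlapping groups. The probe set of Ppid, a cyclophilin partner of Hsp90, and Lamp3 had 10.29 ± 0.14 and 10.30 ± 0.08, also overlapping.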
